A study of Mus musculus with 32 samples.

Results

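The genes described here make, package, clear and degrade the inhibitory transmitter GABA and form its slow metabotropic receptor: Gad1, Gad2, Slc32a1, Slc6a11, Abat, Gabbr1 and Gabbr2. They were chosen by name, as the gene-level features and exon probe sets annotated with 1 of these 7 symbols alone. The rule found 6 of the 7 genes, with 6 of 16755 gene-level features and 87 of 188590 exon probe sets. No feature or probe set carried the symbol Gabbr2, which was not analysed here.

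Hippocampal RNA of 16 male mice, aged 6 to 8 weeks, was hybridised to exon arrays with 1 array per mouse. Of these, 8 mice were of the Sicd2-ISCL4 subcongenic line (ISCL4), which carries a donor segment at a locus for seizure-induced cell death, and 8 were FVB-like littermates, the controls. The labels record no seizure or treatment and name neither the donor strain nor the ends of the segment. The values are log2 signals summarised per gene and, from the same arrays, per exon probe set. Names of the array files follow 2 schemes, called array set A and array set B here, with 4 mice of each group in each set.

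Neurons make GABA from glutamate with the glutamate decarboxylases GAD67, encoded by Gad1, and GAD65, encoded by Gad2. The vesicular transporter encoded by Slc32a1 loads it into synaptic vesicles, plasma membrane transporters such as GAT3, encoded by Slc6a11, clear it from the extracellular space, and GABA transaminase, encoded by Abat, starts its breakdown. Gabbr1 encodes the GABA-binding subunit of the GABA-B receptor, a G protein-coupled receptor that lowers transmitter release and opens inwardly rectifying potassium channels. In the hippocampus the decarboxylases and the vesicular transporter mark interneurons, while GAT3 is mainly astrocytic. In bulk tissue, fewer cells of a type and less RNA per cell cannot be told apart.

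Array medians lay between 7.29 and 7.34 at gene level, and arrays correlated at 0.973 to 0.995 across genes. Array sets differed widely: 7771 of 16755 features differed between them by limma's adjusted p, and array set was a term of every fit unless stated. Markers of hippocampal principal cells were present, with Neurod6, Zbtb20 and Wfs1 at the 93.9th, 93.8th and 93.5th percentiles of mean signal and Spink8 dim, at the 15.8th. One mouse stood apart in striatal markers. FVB-like replicate 2 had a mean of 0.988 for the 7 measured striatal markers (log2, each gene centred on its mean over the 16 mice), against at most 0.336 in the other mice. It was also highest for thalamic markers, at 0.57 against at most 0.415, and for oligodendrocyte markers, at 0.437 against at most 0.341. Means of the choroid plexus markers spread wider, from -1.12 in ISCL4 replicate 8 to 1.11 in ISCL4 replicate 1. Values without FVB-like replicate 2 stand beside the gene-level differences, the correlations and the gene and marker lists.

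None of the 6 measured genes differed between ISCL4 mice and littermates by limma's test across all features. The differences, ISCL4 minus FVB-like, ran from -0.029 for Slc6a11 to 0.053 for Slc32a1 on the log2 scale, or 0.980-fold to 1.04-fold. The 95% intervals of the 6 genes lay between 0.902-fold and 1.10-fold. By adjusted p 0 of the 6 were called, where 0.292% of all features were, and 0 of the 6 had an unadjusted p under 0.05, where 14.4% of all features did. All 6 differences were smaller in size than 0.060, the median size over all features. The 6 genes were bright, at the 76.2nd to 98.7th percentiles of mean signal. Their SE ran from 0.034 to 0.056, where the median SE over all features was 0.062. Sizes were not compared with those of features of like signal.

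**Figure D1:**
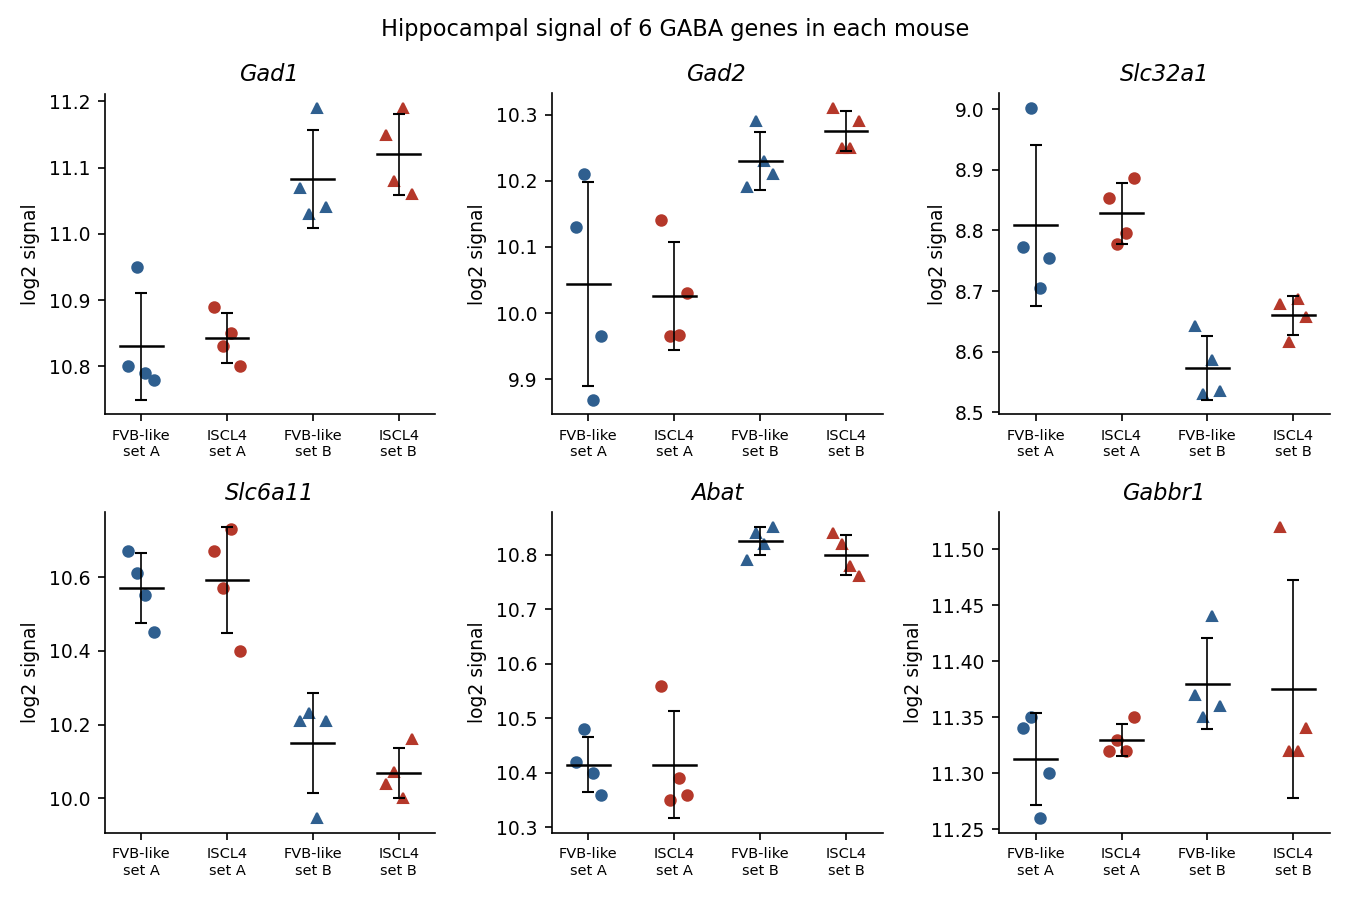
Log2 signal of Gad1, Gad2, Slc32a1, Slc6a11, Abat and Gabbr1 (vertical axes, each on its own range) in each of the 16 mice, by group and array set. Points are mice (circles set A, triangles set B), black lines the mean of 4 mice and bars their SD. Groups overlap within both sets in all 6 panels, while Gad1, Slc32a1, Slc6a11 and Abat separate by array set.

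The decarboxylases are described first. Gad1 (transcript cluster 6877963, chromosome 2) ran from 10.80 through a median of 10.98 to 11.19 (log2 signal) in ISCL4 mice. In littermates the lowest, median and highest signals of Gad1 were 10.78, 10.99 and 11.19. The groups covered the same range. Their means were 10.98 ± 0.15 (SD, n = 8) and 10.96 ± 0.15 (SD, n = 8), a difference of 0.025 (SE 0.036, 95% interval -0.053 to 0.10, limma's adjusted p = 0.803). Without FVB-like replicate 2 the Gad1 difference was 0.0446 (adjusted p = 0.627), and leaving out each mouse in turn gave 0.0133 to 0.0446. Most of the spread followed the array set: Gad1 ran from 10.78 to 10.95 in the 8 mice of set A and from 11.03 to 11.19 in those of set B.

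Gad2 (transcript cluster 6875582, chromosome 2) had a lowest, median and highest signal of 9.97, 10.19 and 10.31 in ISCL4 mice. In littermates these were 9.87, 10.20 and 10.29. Ranges again overlapped almost fully, and the lowest mouse was FVB-like replicate 3. The difference was 0.013 (SE 0.047, 95% interval -0.086 to 0.11, adjusted p = 0.932), with -0.019 within set A and 0.044 within set B. Without FVB-like replicate 3 the difference of Gad2 was -0.012 and without ISCL4 replicate 1 it was -0.0023, so its sign rested on single mice. The Gad2 difference was 0.0408 (adjusted p = 0.738) without FVB-like replicate 2.

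Slc32a1 (transcript cluster 6882762, chromosome 2), the vesicular GABA transporter gene, had the largest difference of the 6. Its lowest, median and highest signals were 8.62, 8.73 and 8.89 in ISCL4 mice. In littermates they were 8.53, 8.67 and 9.002. The highest mouse of all was FVB-like replicate 2, the mouse with the high striatal markers, and the 3 lowest were littermates of set B. The means were 8.74 ± 0.10 (SD, n = 8) and 8.69 ± 0.16 (SD, n = 8), and the difference was 0.053 (SE 0.042, 95% interval -0.035 to 0.14, adjusted p = 0.594). Without FVB-like replicate 2 it was 0.086 and was not called (adjusted p = 0.311), and leaving out each of the other mice gave 0.0399 at the lowest. Within set A, which holds that mouse, the difference was 0.0202, and within set B 0.0865.

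Transport out of the synaptic space and breakdown were read by Slc6a11 and Abat. Slc6a11 (transcript cluster 6949152, chromosome 6) had a lowest, median and highest signal of 10.00, 10.28 and 10.73 in ISCL4 mice. In littermates these were 9.95, 10.34 and 10.67. The groups overlapped over nearly the whole range. The difference was -0.029 (SE 0.056, 95% interval -0.15 to 0.090, adjusted p = 0.858), the widest interval of the 6, with 0.022 within set A and -0.080 within set B. Leaving out each mouse gave -0.0563 (without FVB-like replicate 7) to -0.00399 (without ISCL4 replicate 4), and -0.0270 without FVB-like replicate 2. Abat (transcript cluster 6839231, chromosome 16) ran from 10.35 over a median of 10.66 to 10.84 in ISCL4 mice. In littermates it ran from 10.36 over 10.64 to 10.85. The ranges were nearly identical. The Abat difference was -0.013 (SE 0.034, 95% interval -0.0865 to 0.060, adjusted p = 0.903). It was -0.0362 without ISCL4 replicate 1 and -0.00383 without FVB-like replicate 2, the ends of its range when each mouse was left out.

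Gabbr1 (transcript cluster 6850271, chromosome 17) had the smallest difference. Its signals had a lowest value of 11.32, a median of 11.33 and a highest value of 11.52 in ISCL4 mice. In littermates these were 11.26, 11.35 and 11.44. ISCL4 replicate 5, at 11.52, lay apart from the next ISCL4 mouse, at 11.35. The difference was 0.0071 (SE 0.034, 95% interval -0.065 to 0.079, adjusted p = 0.949), and without ISCL4 replicate 5 it was -0.015. It was 0.0115 without FVB-like replicate 2. The limits of the interval for Gabbr1 were 0.956-fold and 1.06-fold.

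The array sets moved these genes far more than the groups did. Set B minus set A, from the same fit, was 0.26 for Gad1, 0.22 for Gad2 and 0.40 for Abat, and -0.20 for Slc32a1 and -0.48 for Slc6a11 (limma's adjusted p between 2.89e-07 and 0.00132), with 0.056 for Gabbr1 (adjusted p = 0.192). Gad1 and Slc32a1, which act in the same neurons, thus stood in opposite order in the sets. The labels do not say how the sets differ. The test of a different group effect in the sets called 0 of the 6 genes by adjusted p and 0 by unadjusted p, where 0.00597% of all features were called. The differences between the set effects had adjusted p between 0.908 and 0.977, and the widest 95% interval, that of Slc6a11, ran from -0.34 to 0.14.

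Exon probe sets were compared to see whether a part of a transcript differed. The annotation used here does not say which exon or transcript end a probe set reads. Of the 87 probe sets, 0 were called by limma's adjusted p, where 0.0249% of all probe sets were. In ISCL4 mice 46 were higher and 41, or 47.1%, lower, where 48.9% of all probe sets were lower. An unadjusted p under 0.05 was reached by 7 of the 87, or 8.05%, where 10.2% of all probe sets reached it. The median difference of the 87 was 0.0069, and that of all probe sets 0.0037. The smallest adjusted p among the 87 was 0.333.

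**Figure D2:**
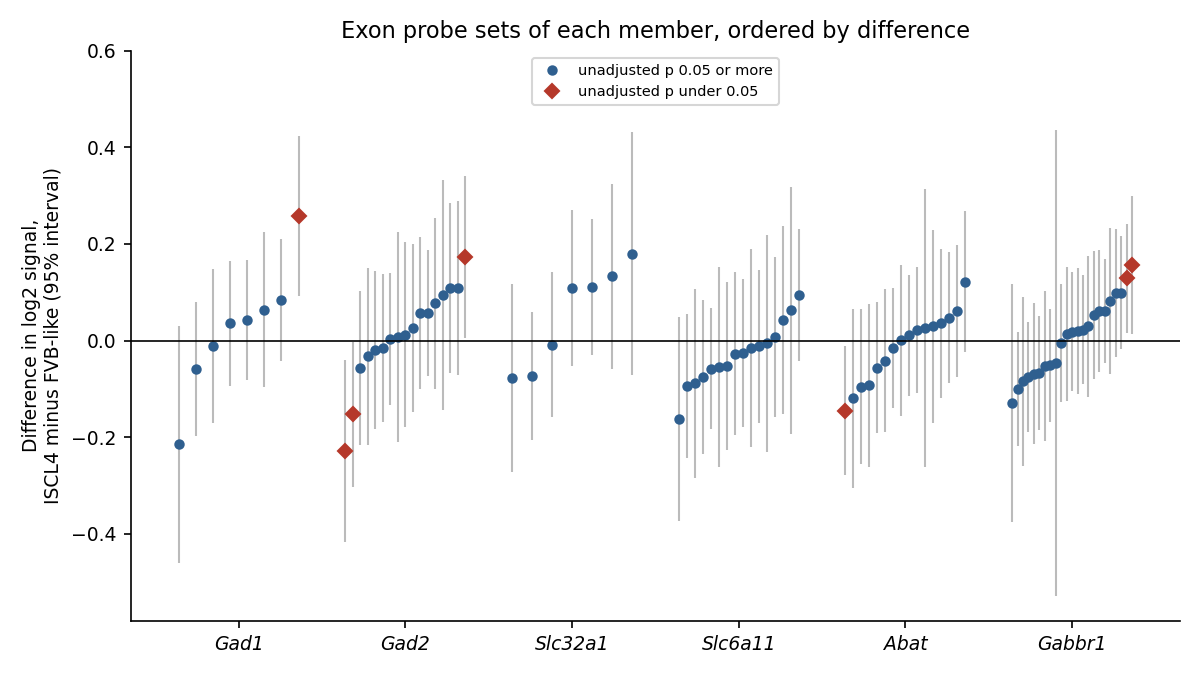
Difference in log2 signal, ISCL4 minus FVB-like (vertical axis), of the 87 exon probe sets of the 6 genes, ordered by difference within each gene (horizontal axis). Points are differences and grey lines 95% intervals. Red diamonds mark the 7 with an unadjusted p under 0.05, 3 lower and 4 higher in ISCL4 mice.

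Gad1 was read by 8 probe sets, 5 higher and 3 lower. Probe set 5351365 of Gad1 ran from 11.28 over a median of 11.43 to 11.76 in ISCL4 mice. In littermates it ran from 11.08 over 11.16 to 11.43. The groups overlapped, with the ISCL4 median close to the highest littermate. The difference was 0.26 (SE 0.078, unadjusted p = 0.00444, limma's adjusted p = 0.333), and within the sets it was 0.10 and 0.41. At the other end, probe set 4504709 of Gad1 differed by -0.22 (adjusted p = 0.541), with -0.027 within set A and -0.40 within set B.

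Gad2 was read by 17 probe sets, 11 higher and 6 lower, with a median difference of 0.0125. Probe sets 5217078 and 5294640 of Gad2 differed by -0.23 (SE 0.089, adjusted p = 0.413) and -0.15 (SE 0.071, adjusted p = 0.478). Probe set 4608836 differed by 0.17 (SE 0.079, adjusted p = 0.475). These 3 had an unadjusted p under 0.05 and lay on both sides of 0. Within sets A and B they differed by -0.084 and -0.37, by -0.12 and -0.18, and by 0.082 and 0.26. Slc32a1 had 4 of 7 probe sets higher, from -0.0775 to 0.18, with a median of 0.11 and 0 with an unadjusted p under 0.05.

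Slc6a11 had 12 of 16 probe sets lower in ISCL4 mice, from -0.16 to 0.094, with a median of -0.027 and 0 with an unadjusted p under 0.05. Abat had 9 of 16 higher, and its probe set 5079834 differed by -0.15 (SE 0.063, adjusted p = 0.454), with -0.039 within set A and -0.25 within set B. Gabbr1, whose gene is known to give receptor isoforms with different starts, had 13 of 23 probe sets higher, from -0.13 to 0.16. Its probe sets 4443771 and 4493740 differed by 0.16 (SE 0.067, adjusted p = 0.454) and 0.13 (SE 0.054, adjusted p = 0.440), with 0.13 and 0.15 within set A and 0.18 and 0.10 within set B. Probe set 5354342 of Gabbr1, with means of 5.88 and 5.92, lay below the 25th percentile of mean signal (6.20) and was the only 1 of the 87 to do so.

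Each probe set was also set against the mean of the other probe sets of its gene on the same array, which removes a shift of the whole gene. Of the 86 member probe sets that could be tested, 0 were called by limma's adjusted p, where 0.0303% of 131808 were. An unadjusted p under 0.05 was reached by 10 of the 86, where 9.6% of all did. The largest relative differences were both in Gad1, at -0.27 for probe set 4504709 (adjusted p = 0.480) and 0.27 for probe set 5351365 (adjusted p = 0.435). The smallest adjusted p was 0.426, for probe set 5294640 of Gad2 at -0.18.

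Other genes of GABA supply, of the GABA-B receptor's partners, of chloride balance and the inhibitory synapse, and of interneuron identity were taken from 4 lists of 63 genes, of which 47 were measured by 48 features. In these lists 0 features were called in either direction, and the smallest adjusted p was 0.151. An unadjusted p under 0.05 was reached by 10 of the 48, or 20.8%, against the 14.4% of all features given above. The median difference of the 48 was -0.017, and that of all features 0.0044. Of the 48, 31 were lower in ISCL4 mice, where 47.9% of all features were lower. Without FVB-like replicate 2, an unadjusted p under 0.05 was reached by 6 of the 48, or 12.5%, against 12.1% of all features, and 0 of the 48 were called.

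**Figure D3:**
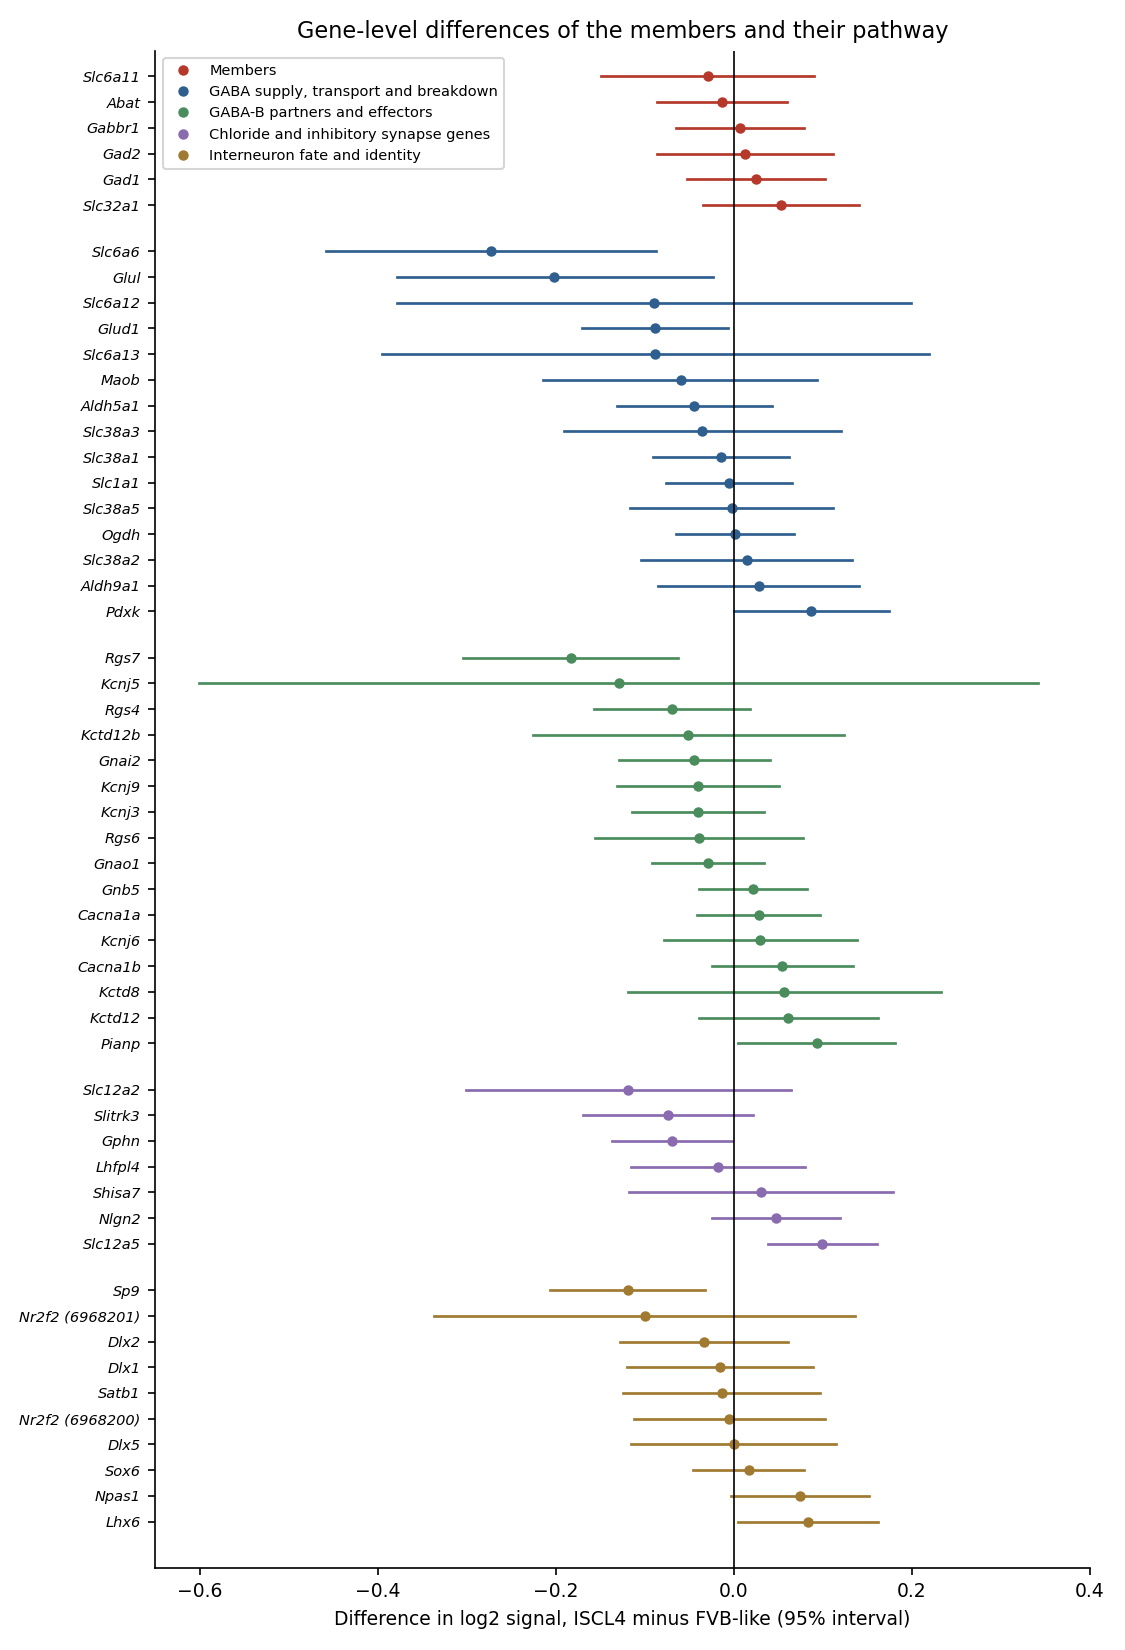
Difference in log2 signal, ISCL4 minus FVB-like (horizontal axis), of the 6 measured genes (red, top) and of the 48 features of the 4 pathway lists, by list. Points are differences and lines 95% intervals. The 6 genes lie between -0.029 and 0.053, and Slc6a6 is lowest at -0.27.

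Among 15 measured genes of GABA supply, transport and breakdown, 11 were lower and 4 higher in ISCL4 mice, with a median of -0.035. The lowest were Slc6a6, the taurine transporter gene, at -0.27 (SE 0.087, adjusted p = 0.186), Glul, the astrocytic glutamine synthetase gene, at -0.20 (SE 0.084, adjusted p = 0.291), and Slc6a12, the betaine and GABA transporter gene, at -0.0895 (SE 0.136, adjusted p = 0.812). The highest were Pdxk at 0.087 (adjusted p = 0.342), which makes the pyridoxal phosphate cofactor of both decarboxylases and of GABA transaminase, Aldh9a1 at 0.028 and Slc38a2, a glutamine transporter gene, at 0.0146. An unadjusted p under 0.05 was reached by 4 of the 15, where 14.4% of all features reached it. Without FVB-like replicate 2, it was reached by 2 of the 15, or 13.3%, against 12.1% of all features, and 11 were again lower.

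Among 16 partners and effectors of the GABA-B receptor, 9 were lower and 7 higher. Rgs7, a regulator that speeds G protein deactivation, was lowest at -0.18 (SE 0.057, adjusted p = 0.175), followed by the potassium channel gene Kcnj5 at -0.13 (SE 0.222) and Rgs4 at -0.069 (SE 0.041). Pianp, which encodes a ligand of a GABA-B receptor isoform, was highest at 0.093 (SE 0.0415, adjusted p = 0.321), with the auxiliary subunit genes Kctd12 at 0.061 (SE 0.047) and Kctd8 at 0.057 (SE 0.083). An unadjusted p under 0.05 was reached by 2 of the 16, where 14.4% of all features reached it. Without FVB-like replicate 2, it was reached by 1 of the 16, or 6.25%, against 12.1% of all features, and 9 were again lower.

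Chloride and inhibitory synapse genes were lower in 4 and higher in 3 of 7 features. Slc12a5, the potassium-chloride cotransporter that keeps neuronal chloride low, ran highest at 0.099 (SE 0.029, unadjusted p = 0.00352, limma's adjusted p = 0.151), and Slc12a2, the importing cotransporter, lowest at -0.12 (SE 0.086, adjusted p = 0.561). Gphn, the inhibitory scaffold gephyrin, differed by -0.070 (SE 0.032, adjusted p = 0.334). Of the 10 features for interneuron transcription factors, 7 were lower and 3 higher, from -0.12 for Sp9 (SE 0.041, adjusted p = 0.213) to 0.083 for Lhx6 (SE 0.037, adjusted p = 0.321). An unadjusted p under 0.05 was reached by 2 of the 7 and by 2 of the 10, where 14.4% of all features reached it. Without FVB-like replicate 2, 5 of the 10 were lower and 5 higher, while the chloride and synapse list again had 4 lower and 3 higher. With that mouse left out, an unadjusted p under 0.05 was reached by 2 of the 7, or 28.6%, and 1 of the 10, or 10%. The share of all features was then 12.1%.

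Cell type markers are given beside these results, with 47 of the 75 measured lower in ISCL4 mice, where 47.9% of all features were. Of 75 measured markers, 0 were called and 18, or 24%, had an unadjusted p under 0.05, against the 14.4% of all features. These were 13 of 75, or 17.3%, against 12.1% of all features without FVB-like replicate 2. Of 12 measured interneuron markers 7 were higher and 5 lower, with a median of 0.052 and 0 called. An unadjusted p under 0.05 was reached by 5 of the 12, where 14.4% of all features reached it. Without FVB-like replicate 2, it was reached by 4 of the 12, or 33.3%, against 12.1% of all features. Over all 16 mice, Pvalb, Nos1 and Vip differed by 0.19, 0.19 and 0.17 (limma's adjusted p = 0.257, 0.138 and 0.303). Tac1 and Ndnf, the lowest, differed by -0.20 and -0.17 (adjusted p = 0.685 and 0.0999). The mean of the interneuron markers, centred per gene, ran from -0.070 to 0.079 in ISCL4 mice and from -0.15 to 0.082 in littermates. Of 9 astrocyte markers 6 were higher, with a median of 0.031, 0 called and 2 with an unadjusted p under 0.05. Their mean ran from -0.24 to 0.18 in ISCL4 mice and from -0.19 to 0.16 in littermates.

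All 7 measured striatal markers were lower, with a median of -0.19 and 0 called or with an unadjusted p under 0.05. Their mean ran from -0.40 to 0.34 in ISCL4 mice and from -0.23 to 0.99 in littermates. Of the 7, 5 were lower without FVB-like replicate 2, with a median of -0.075. Oligodendrocyte markers were lower in 8 of 9, with a median of -0.25 and 0 called. Of these 9, 6 had an unadjusted p under 0.05, where 14.4% of all features did. The mean of the oligodendrocyte markers ran from -0.27 to 0.27 in ISCL4 mice and from -0.054 to 0.44 in littermates. All measured markers of choroid plexus (5), meninges (6) and cortex (4) were also lower, with 0 called and 0, 3 and 1 with an unadjusted p under 0.05. Other lists were mixed: 3 of 4 thalamic, 4 of 6 microglial, 2 of 4 endothelial and 5 of 9 hippocampal principal cell markers were higher. Of these 0 were called, and 1, of endothelium, had an unadjusted p under 0.05. Without FVB-like replicate 2, 4 of 4 thalamic, 4 of 6 microglial, 2 of 4 endothelial and 4 of 9 principal cell markers were higher. With that mouse left out, the lower counts were 8 of 9 for oligodendrocytes, 5 of 5 for choroid plexus, 5 of 6 for meninges and 4 of 4 for cortex. Interneuron markers were again higher in 7 of 12 and astrocyte markers in 5 of 9. An unadjusted p under 0.05 was then reached by 5 of 9 oligodendrocyte, 3 of 6 meningeal and 1 of 4 cortical markers, against 12.1% of all features. It was reached by 0 astrocyte, choroid plexus, endothelial, microglial, striatal, thalamic or principal cell markers. The part of these cell types in the values of the GABA genes was not tested.

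**Figure D4:**
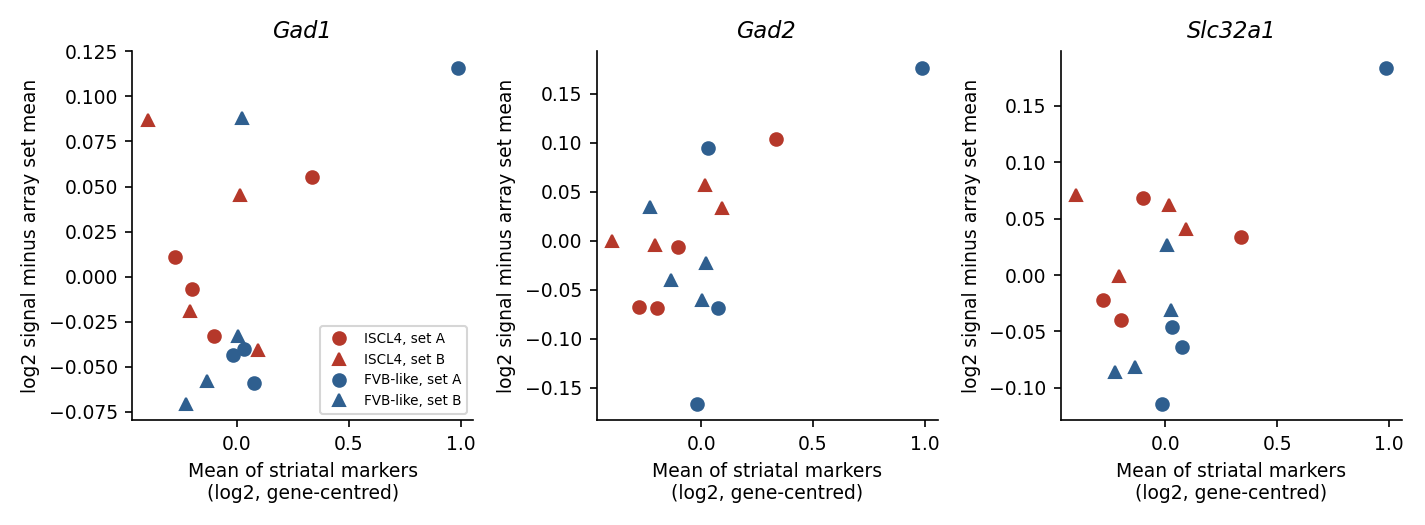
Log2 signal of Gad1, Gad2 and Slc32a1 minus the mean of the mouse's array set (vertical axes) against the mean of 7 striatal markers, each centred on its gene's mean (horizontal axis), for 16 mice. Circles are set A and triangles set B. FVB-like replicate 2, at 0.988 on the horizontal axis, is the highest mouse in all 3 panels.

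Variation between mice was then compared among the 6 genes, after removing the mean of each group within each array set. Of the 15 pairs, 3 passed by Pearson's r over 16 mice with adjustment over the 15. The permutations shuffled the centred values over all mice and made no allowance for the removed means. Their p-values are therefore likely too small, and the 3 passes are not secure. For Gad1 and Slc32a1 r was 0.655 (permutation p = 0.00582, adjusted p = 0.0312) and Spearman's rho 0.512 (permutation p = 0.046, adjusted p = 0.230). For Gad2 and Slc32a1 r was 0.667 (permutation p = 0.00623, adjusted p = 0.0312) and rho 0.553 (permutation p = 0.0296, adjusted p = 0.222). For Gad2 and Abat r was 0.669 (permutation p = 0.00543, adjusted p = 0.0312) and rho 0.644 (permutation p = 0.00842, adjusted p = 0.126). None of the 15 pairs passed by rho.

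The relations of Slc32a1 with Gad1 and Gad2 rested on few mice. For Gad2 and Abat r fell to 0.265 without FVB-like replicate 2 and the 2 remaining mice farthest from the Gad2 median. Without the 2 mice farthest from the median of the first gene, r was 0.434 for Gad1 and Slc32a1, 0.186 for Gad2 and Slc32a1 and 0.739 for Gad2 and Abat. Within array set A, of 8 mice, r was 0.810, 0.801 and 0.708 for the 3 pairs, and within set B 0.481, -0.350 and 0.390. Without FVB-like replicate 2, r was 0.299, 0.355 and 0.595, with permutation adjusted p of 0.475, 0.475 and 0.359. Within set A alone, r without this mouse was -0.102, 0.695 and 0.633 for the same pairs. In set A this mouse was the highest littermate for Gad1 at 10.95, for Gad2 at 10.21 and for Slc32a1 at 9.002, while the highest ISCL4 mice of that set were at 10.89, 10.14 and 8.89. Gad1 and Gad2 themselves, which make the same product, had r = 0.453 (permutation p = 0.0794, adjusted p = 0.248) and rho 0.235 (permutation p = 0.377).

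The genes whose variation between mice was most like that of each GABA gene were found by the same r over 16 mice, among all features with 1 symbol. For Gad1 they were Pi4k2a (0.895), Edil3 (0.886) and Esco1 (0.855), and for Gad2 they were Ppp1ca (0.907), Gtf2a1 (0.891) and Pdyn (0.886), the prodynorphin gene. Slc32a1 was most like Vmn1r38 (0.895), Gnal (0.875) and Pde1b (0.852). Vmn1r38 had a mean signal of 2.72, below the 25th percentile of all gene-level features (5.77), so its r is that of a dim feature. Slc6a11 varied most like Rgs3 (0.904), Slc16a11 (0.850) and Taf6l (0.833), Abat like Mdm2 (0.937), A2m (0.905) and Fam161a (0.879), and Gabbr1 like Ckmt1 (0.912), Ap1s1 (0.874) and Glrx2 (0.853). Of these 18 genes 0 were called between the groups, and arrays share dissection and array set. The 18 were picked as the highest r among 14996 features with 1 symbol. What r chance gives in such a pick was not computed. Without FVB-like replicate 2, 9 of the 18 were again among the 3 most alike, with 0 of 3 for Gad1 and for Slc32a1.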

How the data were processed

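The deposited values are log2 signals, 1 table per gene and 1 per exon probe set from the same 16 arrays. The submitters' processing notes name RMA, Partek 6.6 and build mm9, with roles not given in the sources used here. Symbols came from the platform annotation. A RefSeq table of assembly GRCm38.p6 gave chromosomes and current symbols and, since the builds differ, no coordinates. Groups and replicates came from sample titles, and a replicate is 1 mouse. No column of unknown sample was present.

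All features of a level were fitted with limma 3.58.1 (R 4.3.3; lmFit, eBayes) with group and array set as terms, and called at a Benjamini-Hochberg adjusted p under 0.05 over that level. Probe sets were compared with the rest of their gene where at least 3 probe sets reached the 25th percentile of mean signal. The fits were tested on simulated data. Correlations used 100000 permutations, two-sided, of the centred values over all mice. Figures used matplotlib 3.10.9.

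Members and lists were chosen with earlier results of these data known. Named were all members, any called list gene, at most the 3 highest and 3 lowest of each pathway list, and the 3 genes most like each member. Markers were named as tissue checks or as the highest and lowest of the interneuron list, and probe sets for an unadjusted p under 0.05 or the widest differences. Alternatives covered the replicate number, array set, normalization, filters, the prior and each mouse; list counts and correlations without FVB-like replicate 2 were chosen after seeing the data. The number of arrays limits the precision.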

Additional observations from a re-analysis of the deposited data

Results flagged for a closer look

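In Gabbr1, 1 of the 8 ISCL4 mice lay far from the others. ISCL4 replicate 5 had a log2 signal of 11.52 and the nearest ISCL4 mouse 11.35, a gap of 0.858 of the group's whole range, above Dixon's 95% critical value for 8 mice. The same check was made on 12 gene-level groups and 32 groups of named probe sets. Each group pooled both array sets, and a shift between the sets widens the range, so the check could hardly flag a mouse there. Chance would pass about 1 in 20 groups only where the sets do not differ. No other group passed. Without this mouse the Gabbr1 difference was -0.015 in place of 0.0071, with limma's adjusted p = 0.858.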

How the results depend on the processing

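No gene-level call was made for the 6 genes under any alternative run: of 156 differences 0 were called, and the lowest limma adjusted p was 0.311. Of 384 differences of named probe sets 0 were called, with a lowest adjusted p of 0.105. With the replicate number as a block (replicate block), 0 of the 6 genes, 0 of the 87 probe sets and 0 pathway features were called, and calls over all features fell to 18 at gene level and 30 at exon level. Same-numbered mice correlated at -0.0513 to 0.246 in their deviations, over 0.1 in 6 of 8 pairs. Differently numbered mice were not compared in this way, so these values do not settle whether the numbers mark pairs. The labels do not say what the number marks, and the main fits did not use it. Signs near 0 changed: Abat was 0.0186 with quantile normalization, Gad2 -0.0186 and Slc6a11 0.0218 in array set A alone, Gabbr1 -0.00395 in array set B alone, Slc6a11 0.0139 from the median of its probe sets, and probe set 5406284 of Gabbr1 0.0338 in array set A alone. Leaving out each mouse gave -0.0118 to 0.0408 for Gad2 and -0.0151 to 0.0169 for Gabbr1. The cause was not tested. Of the 18 most alike genes, 9 were shared when only array set was removed and 9 without FVB-like replicate 2, chosen after seeing the data, where r of Slc32a1 and Abat was -0.00437. Calls over all gene-level features, 49 as reported, were 15 without the array set term, 84 with dim features left out, 102 with a trended robust prior, 9 from probe set medians, 0 and 5 in sets A and B, and 19 to 66 without 1 mouse. At exon level, 47 as reported, they were 23, 99 and 273 under the first 3 of these, 1 and 13 in sets A and B, and 26 to 47 without 1 mouse. Member probe sets with an unadjusted p under 0.05, 7 as reported, numbered 2 without the array set term, 0 in set A and 3 to 7 without 1 mouse.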

Other observations

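The shift between array sets ran through most probe sets of a gene and not the same way in all genes. In set B, 15 of 16 Abat probe sets were higher (median 0.51), as were 16 of 17 of Gad2 (median 0.16) and 7 of 8 of Gad1 (median 0.29), while 14 of 16 of Slc6a11 were lower (median -0.49). For Slc32a1 the gene-level shift was -0.20, whereas its 7 probe sets had a median of -0.048 and ran from -0.82 to 0.12. Beside these values, the mean of the astrocyte markers ran from -0.24 to 0.082 in set A and from 0.017 to 0.18 in set B. The mean of the chloride and synapse list shifted the other way, from 0.021 to 0.14 in set A and from -0.17 to -0.044 in set B. Of all gene-level features, 7771 of 16755 differed between the sets by limma's adjusted p. The cause of the shift was not tested.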
